A study of Mus musculus with 2 samples.

Results

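The Toll-like receptor genes examined here are Tlr1, Tlr2, Tlr3, Tlr4, Tlr5, Tlr6, Tlr7, Tlr8, Tlr9 and Tlr13. These 10 genes were taken by symbol from the 32285 features of a single-cell RNA sequencing experiment on mouse brain myeloid cells, and all 10 were found once. Their transcripts were counted as unique molecular identifiers (UMIs), which tag single captured RNA molecules at the 3′ end, and are given as CPM (UMIs of the gene in 1000000 UMIs of the same cells) and as the share of cells with at least 1 UMI. Each cell was placed by its markers in 1 of 3 classes. Microglia, the resident macrophages of the brain, had at least 0.5% of UMIs from P2ry12, Gpr34, Tmem119, Siglech, Fcrls and Olfml3 and under 1% from S100a8 and S100a9. Neutrophils had at least 3% from S100a8 and S100a9, and all remaining cells were kept as other cells. No Toll-like receptor gene was used to choose the cells.

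The study asked how loss of DISC1, a scaffold protein, alters microglia. The first pool held brains of 6 male Disc1 WT/WT mice and the other those of 6 male littermates with Disc1 LI/LI, both 23 weeks of age, and each pool gave 1 library. LI stands for locus impairment, an allele present on both chromosomes of these mice and in all their cells, not in microglia alone. Both pools were dissociated with actinomycin D, a blocker of transcription that limits the response to dissociation, and CD11b-positive cells with a low CD45 signal were sorted. Because cells of 1 pool are not replicates, no test between genotypes was possible, and genotype cannot be told apart from pool, sort or droplet run. All intervals are 95% intervals for counting error only and hold no spread between mice, sorts or droplet runs.

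Toll-like receptors are membrane proteins of innate immunity that recognise molecules of microbes and of damaged cells. Tlr1, Tlr2, Tlr4, Tlr5 and Tlr6 act mainly at the cell surface: Tlr4 recognises lipopolysaccharide, Tlr2 binds lipoproteins paired with Tlr1 or Tlr6, and Tlr5 recognises flagellin. Tlr3, Tlr7, Tlr8, Tlr9 and Tlr13 signal from endosomes, where they recognise nucleic acids: Tlr3 double-stranded RNA, Tlr7 and Tlr8 single-stranded RNA, Tlr9 unmethylated DNA and Tlr13 bacterial ribosomal RNA. Tlr3 signals through the adaptor Ticam1, Tlr4 through Ticam1 and Myd88, and the others through Myd88, toward NF-kB and interferon regulatory factors.

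In the GENCODE annotation of mm10, Tlr1 (chr5:64924679-64933563) and Tlr6 (chr5:64952031-64960097) lie on the same strand with 18467 bases between them. Tlr8 (chrX:167242696-167264329) and Tlr7 (chrX:167304929-167330558) likewise share a strand and are 40599 bases apart. Tlr13 (chrX:106143204-106160493) is also on the X chromosome. The others are Tlr2 (chr3:83836272-83841767), Tlr3 (chr8:45395665-45411080), Tlr4 (chr4:66827584-66930284), Tlr5 (chr1:182954788-182976044) and Tlr9 (chr9:106222598-106226883). Exons cover 3014 bases in Tlr2, the fewest, and 5556 in Tlr4, the most. Tlr3 was the only member overlapped by another annotated gene, Gm45542 on the opposite strand.

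The RefSeq promoter windows of GRCm38.p6, from 250 bases before to 50 after a start, held 10 promoters of 8 members, with Tlr4 and Tlr7 missing. Shown are the windows of a member higher in microglia than in neutrophils (Tlr3) and of members higher in neutrophils (Tlr2 and Tlr8). That of a member at similar levels in both classes (Tlr13) is added. All windows are on the strand of their gene. They are chr8:45410331-45410630 (minus strand) for Tlr3, chr3:83841559-83841858 (minus) for Tlr2, chrX:167264280-167264579 (minus) for Tlr8 and chrX:106143025-106143324 (plus) for Tlr13. Capitals mark a match to GAGGAAG, a core sequence bound by the myeloid factor PU.1, or to the interferon response pattern, GAAA repeated after 2 bases of any kind, both searched on both strands.
Tlr3: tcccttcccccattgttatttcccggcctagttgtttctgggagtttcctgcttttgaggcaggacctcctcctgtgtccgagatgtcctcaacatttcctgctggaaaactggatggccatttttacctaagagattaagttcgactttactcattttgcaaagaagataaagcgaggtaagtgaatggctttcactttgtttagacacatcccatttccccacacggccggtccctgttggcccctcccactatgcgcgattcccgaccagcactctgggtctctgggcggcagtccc
Tlr2: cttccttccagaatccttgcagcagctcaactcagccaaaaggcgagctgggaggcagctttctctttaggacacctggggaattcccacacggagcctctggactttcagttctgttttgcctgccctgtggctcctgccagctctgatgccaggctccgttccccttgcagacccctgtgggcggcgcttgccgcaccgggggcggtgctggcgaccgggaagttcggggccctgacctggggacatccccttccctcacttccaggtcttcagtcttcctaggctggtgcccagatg
Tlr8: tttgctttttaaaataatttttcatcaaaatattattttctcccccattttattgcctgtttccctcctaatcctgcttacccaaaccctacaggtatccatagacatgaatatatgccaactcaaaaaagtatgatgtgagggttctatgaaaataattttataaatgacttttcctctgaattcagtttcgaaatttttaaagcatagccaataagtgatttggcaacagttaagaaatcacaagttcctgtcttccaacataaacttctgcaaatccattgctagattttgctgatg
Tlr13: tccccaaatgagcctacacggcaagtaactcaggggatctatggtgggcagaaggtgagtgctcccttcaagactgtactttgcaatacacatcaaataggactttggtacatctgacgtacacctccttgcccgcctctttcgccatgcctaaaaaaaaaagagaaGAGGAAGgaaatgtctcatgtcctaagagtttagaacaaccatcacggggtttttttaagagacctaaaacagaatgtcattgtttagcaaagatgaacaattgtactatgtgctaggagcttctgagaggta
GAGGAAG was present in the Tlr13 window above and in 1 promoter each of Tlr1 and Tlr9, that is in 3 of the 10 promoters, and in 13.6% of all 32851 promoters of the same length. The interferon response pattern matched 1 promoter, of Tlr6, at 2 overlapping places, against 3.44% of all promoters. No match in the windows of Tlr2, Tlr3 and Tlr8 says only that these letters are not in them.

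The 2 libraries differed in make-up before any receptor gene was looked at. After cells with under 200 genes or over 10% mitochondrial UMIs were left out, 7032 cells of the Disc1 WT/WT library and 7817 of the Disc1 LI/LI library remained, with medians of 4234.5 and 4566 UMIs. Microglia made up 87.9% of the Disc1 WT/WT cells (6180 cells) and 24.9% of the Disc1 LI/LI cells (1950), whereas neutrophils made up 1.65% (116) and 46.3% (3622), and other cells numbered 736 and 2245. Disc1 itself was at 20.3 CPM (597 UMIs) in Disc1 WT/WT microglia and 2.20 CPM (18 UMIs) in Disc1 LI/LI microglia. Across 8 microglia markers that the gate did not use, the median log2 ratio, Disc1 LI/LI relative to Disc1 WT/WT, was 0.14, and none differed by 1.5-fold. Cells just outside the microglia gate (0.4% to 0.5%) held the members at 404 and 331 CPM in all, and those just inside it (0.5% to 0.6%) at 443 and 346 CPM. The 2 barcode lists shared 12 barcodes.

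In microglia, Tlr7 had the highest level of the family in both libraries. It was at 204 CPM (interval 199 to 209, 5998 UMIs) in Disc1 WT/WT and at 150 CPM (142 to 158, 1224 UMIs) in Disc1 LI/LI. Tlr3 followed with 132 CPM and 92.4 CPM, so that both stood above every surface receptor. Below them came Tlr13 with 80.4 and 61.9 CPM, Tlr4 with 80.2 and 51.9 CPM and Tlr2 with 51.3 and 46.4 CPM. UMIs of a 3′ assay count transcripts, so these levels were not divided by transcript length.

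The remaining members were rarer. Tlr1 was at 16.9 and 9.18 CPM in the wild-type and the Disc1 LI/LI library, Tlr6 at 12.1 and 11.9 CPM, Tlr5 at 8.0 and 5.75 CPM and Tlr9 at 6.94 and 2.57 CPM. Tlr8 was close to absent, with 1.19 CPM (35 UMIs) and 0.245 CPM (2 UMIs). The order was the same in both libraries except for Tlr1 and Tlr6, which changed places. In Disc1 WT/WT the intervals of the neighbours Tlr13 and Tlr4 overlapped, as did those of Tlr5 and Tlr9. In Disc1 LI/LI the overlapping neighbours were Tlr13 and Tlr4, Tlr4 and Tlr2, Tlr6 and Tlr1, and Tlr1 and Tlr5.

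**Figure D1:**
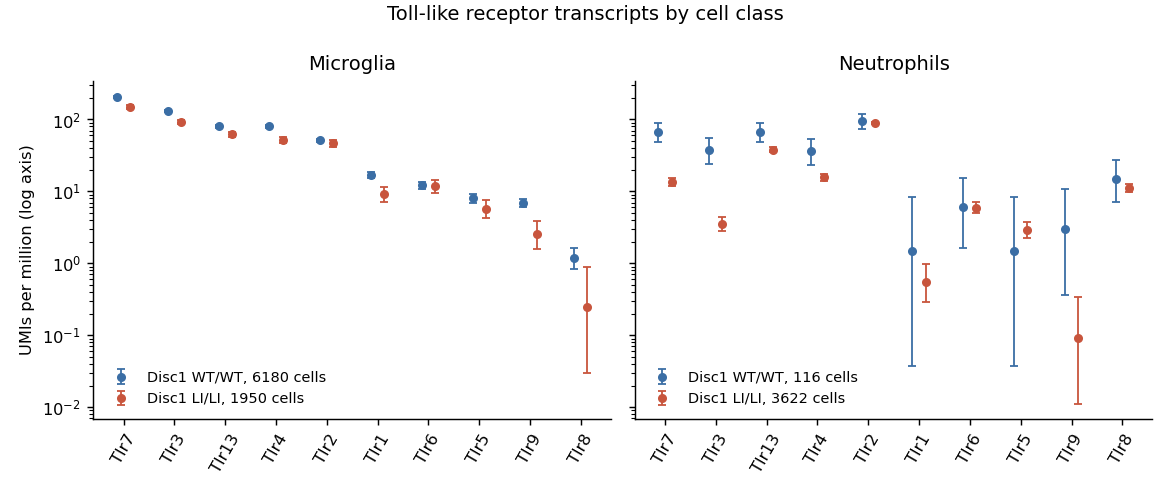
CPM (log axis) of each receptor gene in microglia (left) and neutrophils (right) of the Disc1 WT/WT (blue) and Disc1 LI/LI (red) libraries; points are 1 pool of 6 mice each and bars are exact Poisson intervals. Tlr7 and Tlr3 lead in microglia, Tlr2 leads in neutrophils, and Tlr8 is higher in neutrophils (15.0 and 11.2 CPM) than in microglia (1.19 and 0.245 CPM).

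Most microglia held at least 1 receptor transcript. Any of the 10 genes was detected in 87.1% of microglia in the Disc1 WT/WT library and in 78.3% in the Disc1 LI/LI library, at median depths of 4271 and 3787.5 UMIs, and 12.3% and 3.90% of the cells held UMIs of 4 or more members. Tlr7 was detected in 55.8% (interval 54.6 to 57.1) and 43.5% (41.3 to 45.7) of microglia and Tlr3 in 41.2% and 29.5%. With every cell thinned to 1000 UMIs, which left out 104 and 17 shallower microglia, the share with any member was 42.8% and 34.2%, that with Tlr7 was 18.0% and 14.3%, and that with Tlr3 was 12.4% and 7.76%. The lower shares in Disc1 LI/LI therefore remained at equal depth. As a measure of background, T cell-like cells of the Disc1 WT/WT library, which should lack these RNAs, held Tlr7 in 2.63% and Tlr3 in 2.63% of 38 cells. Their median was 4259.5 UMIs. Each share is 1 cell, with an interval from 0.067% to 13.8%, so this background is known only roughly.

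**Figure D2:**
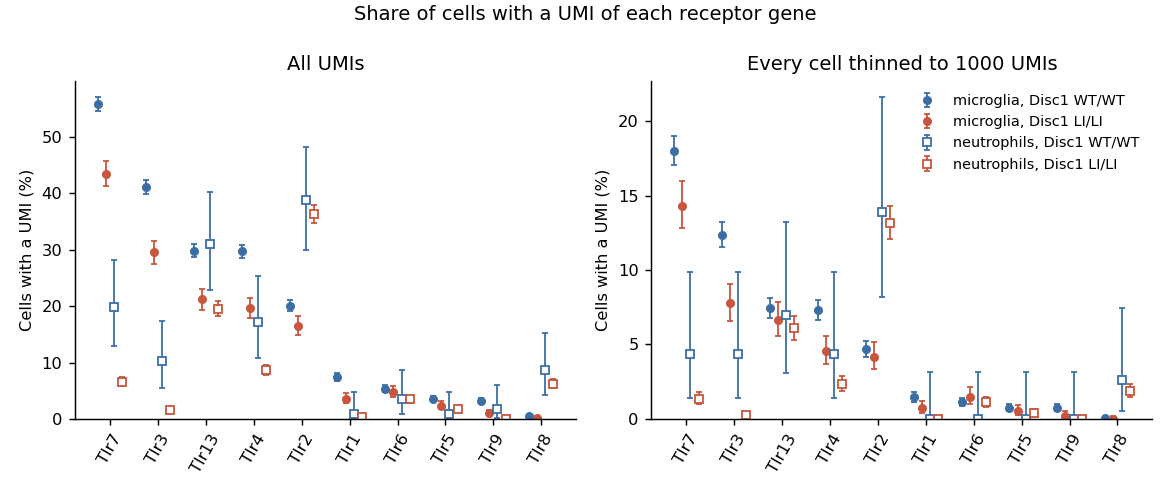
Percent of cells with a UMI of each receptor gene, from all UMIs (left) and with every cell thinned to 1000 UMIs (right), in microglia (filled circles) and neutrophils (open squares) of Disc1 WT/WT (blue) and Disc1 LI/LI (red); bars are exact binomial intervals. Thinning lowers all shares, and Tlr7 in microglia keeps the higher share in Disc1 WT/WT (18.0% against 14.3%).

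Between the libraries, all 10 members had a lower level in microglia of Disc1 LI/LI than of Disc1 WT/WT, although Tlr2 and Tlr6 turned positive in some alternatives, and 4 were lower by at least 1.5-fold. By this size 19.9% of 13137 genes with at least 10 UMIs were lower and 6.49% were higher, and no member was higher. Under TMM scaling 3 members were lower, as were 11.5% of all genes, and 9.37% of all genes were higher. The median log2 ratio of the members was -0.50, against -0.18 for all genes, of which 64.7% were below 0.

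Among the endosomal receptors, Tlr7 had a log2 ratio of -0.45 (interval -0.54 to -0.36) and Tlr3 of -0.52 (-0.63 to -0.41), which left them at 73.4% and 69.8% of the Disc1 WT/WT level. Tlr13 was at -0.38 (-0.52 to -0.24). Tlr9, with 204 and 21 UMIs, was 2.70-fold lower (log2 ratio -1.43, -2.16 to -0.78). Tlr8 was 4.87-fold lower from only 35 and 2 UMIs, and its interval reached from -5.38 to -0.32. In the main scaling, Tlr3, Tlr7, Tlr9 and Tlr13 were thus lower beyond counting error, while Tlr8 rested on few cells, as described below. TMM scaling gave -0.34 for Tlr3, -0.27 for Tlr7, -1.26 for Tlr9 and -0.20 for Tlr13. With cells thinned to 1000 UMIs these ratios were -0.73, -0.33, -1.84 and -0.19. The share of thinned microglia with Tlr13 was 7.44% (6.79 to 8.13) in the wild type. It was 6.62% (5.55 to 7.82) in the other library, so that the intervals overlapped.

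Among the surface receptors, Tlr4 was 1.55-fold lower (log2 ratio -0.63, -0.78 to -0.48), from 2356 and 424 UMIs, and fell short of 1.5-fold with TMM scaling (-0.45), with a microglia gate at 1% (-0.56) and with the mean over cells (-0.58). Tlr1 was 1.84-fold lower (-0.88, -1.25 to -0.53), from 497 and 75 UMIs. Tlr1 and Tlr6, the alternative partners of Tlr2, differed here, since Tlr6 was at -0.03 with an interval from -0.37 to 0.29. Tlr2 was at -0.15 (-0.31 to 0.02), and Tlr5 at -0.48 (-0.96 to -0.02) from 235 and 47 UMIs. The intervals of Tlr2 and Tlr6 included 0, and these members were at 0.03 and 0.14 when the counts were scaled by TMM factors, which put the median of all genes at -0.01. Tlr6 was also at 0.40 with cells thinned to 1000 UMIs and at 0.06 with the mean over cells.

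Several measures moved with this comparison, and their part in it was not tested. Genes with longer exonic sequence had lower ratios: the median log2 ratio was 0.11, -0.09, -0.26 and -0.42 from the shortest to the longest quartile of genes. The second of these quartiles held Tlr1, Tlr2, Tlr6, Tlr7, Tlr8 and Tlr9, and the third held Tlr3, Tlr4, Tlr5 and Tlr13. Neutrophil RNA was more widespread in the Disc1 LI/LI library. The median level of 10 neutrophil markers in microglia was 0.839% of that in neutrophils there and 0.0233% in Disc1 WT/WT, with Csf3r, which microglia also transcribe, the highest at 56.2% and 53.4%. Only 157 of the 1950 Disc1 LI/LI microglia had no UMI of S100a8 or S100a9, against 5428 of 6180. In these cells 7 members were lower by at least 1.5-fold, as were 24.2% of 12568 genes, and the median log2 ratio was -0.63 against -0.05 for all genes. The 3 members not among the 7 were Tlr2 at 0.03, Tlr13 at -0.45 and Tlr8, which had no UMI in the 157 cells. These cells had a median of 3153 UMIs, and no interval was computed for their ratios. Of the 7, Tlr1, Tlr5, Tlr6 and Tlr9 had only 75, 47, 97 and 21 UMIs in all 1950 Disc1 LI/LI microglia. Their ratios in the 157 cells therefore rest on few UMIs.

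**Figure D3:**
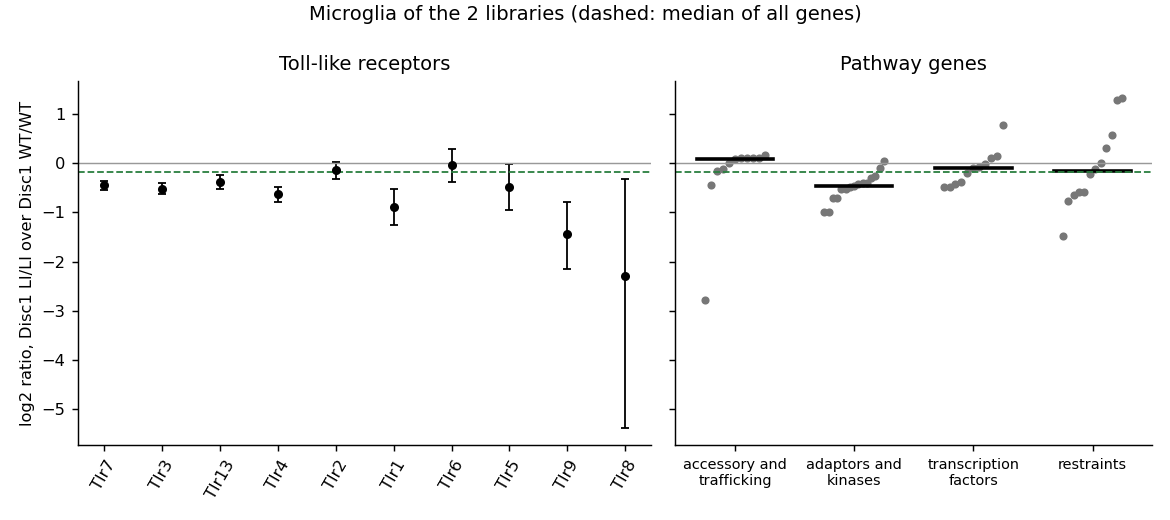
Log2 ratio of CPM in microglia, Disc1 LI/LI relative to Disc1 WT/WT. Left, the 10 receptor genes with counting intervals; right, genes of 4 pathway lists with at least 10 UMIs, counted in both libraries (grey points), and the list medians (bars). The dashed line is the median of all genes (-0.18). All receptor genes lie below 0 (Tlr2 and Tlr6 do not in some alternatives), and the adaptors and kinases have the lowest list median (-0.46).

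Tlr8 in the microglia class came mostly from few cells. In Disc1 WT/WT, 125 microglia (2.02%) held at least 3 of 8 markers of border-associated macrophages, the macrophages of the meninges and vessels, such as Mrc1, Pf4 and Ms4a7. These cells held 27 of the 35 Tlr8 UMIs, a level of 36.8 CPM against 0.279 CPM in the other 6055 microglia. In Disc1 LI/LI, 9 microglia (0.462%) held as many markers. Without them the counts of Tlr8 were 8 and 1, too few for a ratio to be called, whereas Tlr7 stayed at -0.45, Tlr4 at -0.64, Tlr1 at -0.94 and Tlr9 at -1.42. Tlr7 itself differed little between marker-rich and other Disc1 WT/WT microglia, with 195 and 204 CPM.

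The receptors were also compared across microglial states, with lists chosen after the levels were known. The 5% of microglia with the highest share of UMIs from Apoe, Cst7, Spp1, Lpl, Itgax, Cd9, Axl, Gpnmb and Ctsz, genes of disease-associated microglia, are the top of a continuous score and not a cell type. In these cells Tlr2 was at 80.4 CPM (67.2 to 95.4) against 49.7 CPM in the others in Disc1 WT/WT, and at 96.3 CPM (69.7 to 130) against 43.5 CPM in Disc1 LI/LI. Tlr3 went the other way, with 89.0 against 135 CPM and 64.9 against 94.0 CPM, and so did Tlr7, with 176 against 206 CPM and 105 against 152 CPM. The interval of Tlr3 in Disc1 LI/LI (43.5 to 93.3 CPM) overlapped that of the other cells. Tlr4 was similar in both parts in Disc1 WT/WT (85.9 and 79.8 CPM). Tlr8 was at 17.9 against 0.216 CPM in Disc1 WT/WT (29 and 6 UMIs) and had 2 and 0 UMIs in Disc1 LI/LI. In Disc1 WT/WT microglia with at least 3 border-associated macrophage markers, Tlr3 was likewise lower, at 87.3 against 133 CPM. The part of such marker-rich cells in the top 5% was not tested. For the 5% with the highest share of interferon response genes, the intervals of all members overlapped those of the other microglia, except Tlr8 in Disc1 WT/WT, with 11.5 against 0.679 CPM.

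The receptors work with chaperones, adaptors, transcription factors and restraints, and 51 such genes in 4 lists were examined in microglia. Of the 50 with at least 10 UMIs, 8 were lower and 4 higher in Disc1 LI/LI by at least 1.5-fold, shares near those of all genes (19.9% and 6.49%), with a median log2 ratio of -0.20.

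Genes that carry receptors to their place or help them bind ligand differed little between the libraries, with a list median of 0.09. Hsp90b1, the chaperone of most Toll-like receptors, was at 1771 CPM in Disc1 WT/WT and 1595 CPM in Disc1 LI/LI microglia. Unc93b1, which escorts the endosomal receptors, was at 1098 and 1182 CPM, Cd14, a lipopolysaccharide carrier, at 322 and 347 CPM, and Ly96, the partner of Tlr4 in lipopolysaccharide binding, at 75.7 and 85.3 CPM. Ly86 was at 1517 and 1632 CPM and its partner Cd180, a relative of Tlr4, at 110 and 80.2 CPM (log2 ratio -0.45). The list's 2 members past 1.5-fold, named after their values were seen, were Cd36, with 74 and 3 UMIs, and Lbp, with 0 and 17 UMIs. Lbp was at 66.7 CPM in Disc1 LI/LI neutrophils, and its part in the microglia value as free RNA was not tested.

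Of 15 adaptors and proximal kinases, 14 were below 0, as were 64.7% of all genes, and 4 were lower by 1.5-fold, as were 19.9% of all genes, with a list median of -0.46. Irak2, a kinase downstream of Myd88, was at 82.6 and 50.3 CPM (log2 ratio -0.72, -0.87 to -0.56). The other 3, named after their values were seen, were Irak4 (-0.70), Traf6 (-0.99) and Tab3 (-0.98). Tab2 was at 146 and 108 CPM, Pik3ap1 at 101 and 73.3 CPM and Tbk1, a kinase of interferon induction, at 60.7 and 45.6 CPM. Myd88 was at 42.4 and 35.2 CPM (-0.27, -0.46 to -0.08). The exception was Ticam1, with 8.27 and 8.57 CPM (0.05, -0.35 to 0.44).

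Transcription factors and NF-kB kinases had a list median of -0.10, with none lower by 1.5-fold and Irf7 higher (4.93 and 8.44 CPM). Irf8 was at 392 and 366 CPM and Irf5 at 178 and 198 CPM, while the NF-kB subunits Nfkb1 (159 and 113 CPM) and Rel (128 and 95.2 CPM) had log2 ratios of -0.49 and -0.43. Among restraints of the pathway, with a median of -0.17, Nfkbia, the inhibitor of NF-kB, was at 283 and 349 CPM (0.30). The deubiquitinase Cyld was at 90.5 and 53.2 CPM (-0.77) and Rnf216, a ubiquitin ligase, at 103 and 68.7 CPM (-0.58). The other restraints past 1.5-fold, named after their values were seen, were Tnfaip3 (-0.64) and Il1rl1 (-1.48) below and Sigirr and Sarm1 above, the latter from 10 and 7 and from 25 and 17 UMIs. In Disc1 LI/LI neutrophils the highest gene of each list was Nfkbia (521 CPM), Hsp90b1 (238 CPM), Rel (50.2 CPM) and Tab2 (43.1 CPM).

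Neutrophils had a different set of receptors. Tlr2 was highest, with 94.4 CPM (72.6 to 121, 63 UMIs) in Disc1 WT/WT and 89.3 CPM (85.3 to 93.3, 1926 UMIs) in Disc1 LI/LI, which was 1.84-fold and 1.92-fold above microglia of the same library. The size of this difference depended on the scaling: the log2 ratios of 0.88 and 0.94 became 1.55 and 1.74 with the mean over cells, 1.64 and 1.89 with thinned cells and 1.80 and 2.25 with TMM factors, which raised all ratios of neutrophils to microglia by 0.92 and 1.31. Tlr8 was at 15.0 CPM (10 UMIs) and 11.2 CPM (241 UMIs), 12.6-fold and 45.6-fold above microglia, the latter against only 2 UMIs (log2 ratio 5.51, 3.64 to 8.57). Tlr13 was at 67.4 and 38.1 CPM, near its microglial level in Disc1 WT/WT and 1.62-fold below it in Disc1 LI/LI, where it was above it under TMM scaling (log2 ratio 0.61). Tlr2 was detected in 38.8% and 36.3% of neutrophils, and in 13.9% and 13.2% with cells thinned to 1000 UMIs.

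The other members were lower in neutrophils than in microglia of both libraries, except that Tlr5 and Tlr6 were higher in those of Disc1 LI/LI under TMM scaling (log2 ratios 0.33 and 0.31). Tlr3 was at 37.5 CPM in Disc1 WT/WT neutrophils and 3.57 CPM in those of Disc1 LI/LI, which was 3.53-fold and 25.9-fold below microglia, and Tlr7 was at 66.0 and 13.5 CPM, or 3.09-fold and 11.1-fold below. Tlr4 was at 36 and 15.8 CPM, or 2.23-fold and 3.28-fold below. Tlr1 was 11.3-fold and 16.5-fold lower from 1 and 12 UMIs, and Tlr9 was at 2 UMIs in each library. For Tlr5, Tlr6 and Tlr9 the interval of the ratio included 0 in Disc1 WT/WT. By a size of 4-fold, 2 members were lower in Disc1 WT/WT neutrophils, Tlr1 and Tlr5 from 1 UMI each, as were 15.6% of all genes. In Disc1 LI/LI neutrophils 4 were lower, Tlr1, Tlr3, Tlr7 and Tlr9, as were 34.2% of all genes. Tlr8 was the 1 member that was higher by 4-fold in each library, as were 5.97% and 8.74% of all genes. With TMM factors Tlr2 passed 4-fold as well in Disc1 LI/LI, and Tlr5 was no longer lower by 4-fold in Disc1 WT/WT, where the members lower by 4-fold numbered 1 to 4 over the alternatives.

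Microglial RNA was present in the neutrophil class, and more so in Disc1 WT/WT. The 8 microglia markers outside the gate were at 18.9% to 26.8% of their microglial level in Disc1 WT/WT neutrophils (median 20.4%) and at 3.54% to 4.96% in Disc1 LI/LI neutrophils (median 3.77%). Tlr3 lay in the same range in Disc1 LI/LI (3.86%) and near it in Disc1 WT/WT (28.3%), whereas Tlr2 was at 192% and 184% of its microglial level in these libraries. In the 60 Disc1 WT/WT and 2780 Disc1 LI/LI neutrophils without a UMI of the 6 gate markers of microglia, the markers outside the gate were at medians of 1.12% and 0.575%. In these cells Tlr3 had 0 UMIs in Disc1 WT/WT and 5 UMIs (0.350 CPM) in Disc1 LI/LI. Tlr7 remained at 19.1 and 10.0 CPM (5 and 143 UMIs), 10.7-fold and 15.0-fold below microglia. Tlr4 was at 22.9 and 15.0 CPM (6 and 214 UMIs) and Tlr8 at 19.1 and 12.4 CPM (5 and 177 UMIs). Tlr2 was at 115 and 104 CPM (30 and 1479 UMIs) and Tlr13 at 57.3 and 44.3 CPM (15 and 633 UMIs).

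Between the libraries, neutrophil levels rest on 116 Disc1 WT/WT cells. The log2 ratio, Disc1 LI/LI relative to Disc1 WT/WT, was -0.08 (-0.44 to 0.30) for Tlr2 and -0.42 (-1.33 to 0.65) for Tlr8, so that neither differed beyond counting error. Tlr13 was at -0.82 (-1.26 to -0.36), Tlr4 at -1.19 (-1.78 to -0.52), Tlr7 at -2.29 (-2.75 to -1.79) and Tlr3 at -3.39 (-4.06 to -2.68). These sizes depended on the processing, and TMM factors raised all ratios of this comparison by 0.49. Over the alternatives Tlr13 ranged from -0.82 to -0.13 and Tlr4 from -1.40 to -0.61. Tlr7 ranged from -2.84 to -0.93, Tlr3 from -6.02 to -2.61, Tlr2 from -0.17 to 0.41 and Tlr8 from -0.70 to 0.06. The part of the microglial RNA in the class was not tested beyond the values above for neutrophils without microglia marker UMIs. Tlr1, Tlr5, Tlr6 and Tlr9 had at most 4 UMIs in Disc1 WT/WT neutrophils, and Tlr9, with 2 UMIs in each library, had the lowest ratio (-5.02, -8.80 to -1.23).

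Receptor levels differed among neutrophils by their stage. Camp, Ngp and Ltf, which encode granule proteins made before neutrophils are mature, took at least 1% of UMIs in 50 Disc1 WT/WT and 1631 Disc1 LI/LI neutrophils and less in 66 and 1991. Cxcr2, a receptor of mature neutrophils, was 3.85-fold and 3.92-fold higher in the cells with few granule transcripts. Tlr2 was at 39.9 CPM in granule-rich and 191 CPM in granule-poor cells of Disc1 WT/WT and at 38.9 and 193 CPM in Disc1 LI/LI, a difference of 4.79-fold and 4.95-fold. For Tlr2, both libraries thus gave nearly the same values at each stage.

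Most other members had the same direction. The exceptions were Tlr9, with 2 UMIs in granule-rich and 0 in granule-poor cells of each library, and Tlr1 in Disc1 WT/WT, with 1 and 0 UMIs. Tlr13 was at 46.9 and 104 CPM in Disc1 WT/WT and at 18.7 and 78.0 CPM in Disc1 LI/LI, and Tlr8 was at 2.34 and 37.4 CPM and at 5.03 and 23.8 CPM. For Tlr3, Tlr4 and Tlr7 in Disc1 WT/WT the interval of the ratio included 0. In Disc1 LI/LI, Tlr6 was 6.43-fold higher in granule-poor cells (2.14 and 13.7 CPM) and Tlr4 was 2.53-fold higher (10.5 and 26.6 CPM). Tlr7 differed least of the members with over 100 UMIs there, with 11.4 and 17.8 CPM (1.56-fold). Granule-rich cells were deeper, with medians of 7155 and 7055 UMIs against 2742.5 and 2765, and granule transcripts take part of the total by which CPM is divided.

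**Figure D4:**
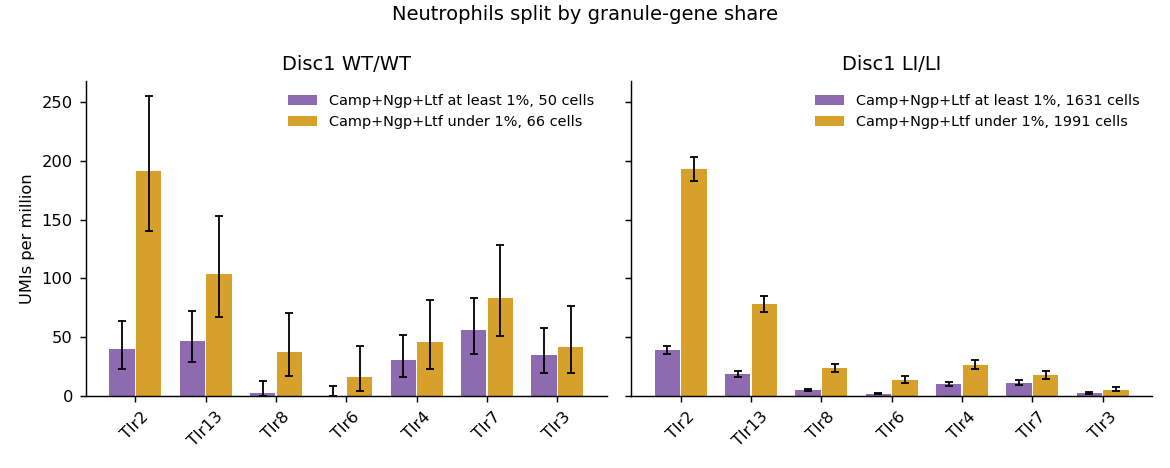
CPM of 7 receptor genes in neutrophils with at least 1% (purple) and under 1% (yellow) of UMIs from Camp, Ngp and Ltf, in Disc1 WT/WT (left) and Disc1 LI/LI (right); error bars are exact Poisson intervals. Tlr2 is at 39.9 and 191 CPM in Disc1 WT/WT and at 38.9 and 193 CPM in Disc1 LI/LI.

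The other cells were divided by 12 marker lists, under a rule set after the cells were seen, into populations named only as like the type whose markers they held. Classical monocyte-like cells, 37 from the wild type and 1326 from Disc1 LI/LI, resembled neutrophils in Tlr2, with 93.9 and 88.9 CPM. They held Tlr13 at 69.1 and 38.1 CPM and Tlr8 at 33.2 and 22.3 CPM, and their Tlr3 was at 11.1 and 2.54 CPM. Nonclassical monocyte-like cells, 31 and 56, held Tlr7 at 200.2 and 49.96 CPM, Tlr13 at 148 and 56.2 CPM and Tlr8 at 84.3 and 37.5 CPM, from 6 to 19 UMIs each. In the 35 border-associated macrophage-like cells of Disc1 WT/WT, Tlr7 was at 227 CPM (155 to 320), Tlr4 at 121 CPM and Tlr8 at 106 CPM (59.5 to 175), the highest level of Tlr8 in any population of at least 20 cells. Disc1 LI/LI had only 6 such cells.

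Dendritic cell-like cells carried Tlr3. It was at 185 CPM (131 to 253) in 21 cells of Disc1 WT/WT and at 46.3 CPM (31.0 to 66.5) in 72 cells of Disc1 LI/LI, while Tlr7 had 0 and 1 UMIs. Cells with a UMI of Xcr1, the receptor of cross-presenting dendritic cells, made up 7 of the 21 and 8 of the 72. In them Tlr3 was at 346 CPM (238 to 486) and 162 CPM (92.3 to 262), against 45.2 and 24.7 CPM in dendritic cell-like cells without an Xcr1 UMI. The higher Tlr3 level was thus found with Xcr1 in both libraries.

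Lymphoid and progenitor populations held few receptor transcripts. In the 72 granulocyte-monocyte progenitor-like cells of Disc1 LI/LI, with a median of 31015 UMIs, Tlr2 was at 5.60 CPM (11 UMIs), Tlr4 at 3.05 CPM and Tlr3, Tlr8 and Tlr9 had no UMI. In the 107 B cell-like cells of that library Tlr2 was at 21.6 CPM (11 UMIs) and Tlr9 had no UMI (interval up to 7.26 CPM). T cell-like cells had 1 to 3 UMIs of each detected member, and the microglia markers outside the gate were at medians of 12.4% and 6.73% of their microglial level in them. The part of free RNA in these low levels was not tested. Another 482 and 297 cells held more of the microglia list than of any other list, but lay outside the microglia gate and were left unnamed. Their genes most raised over the remaining other cells of Disc1 WT/WT held 0 markers of that list and included Prss34, Mcpt8 and Cpa3. In these unnamed cells Tlr2 was at 93.2 and 61.6 CPM, Tlr7 at 79.3 and 54.7 CPM and Tlr8 at 31.4 and 8.80 CPM.

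**Figure D5:**
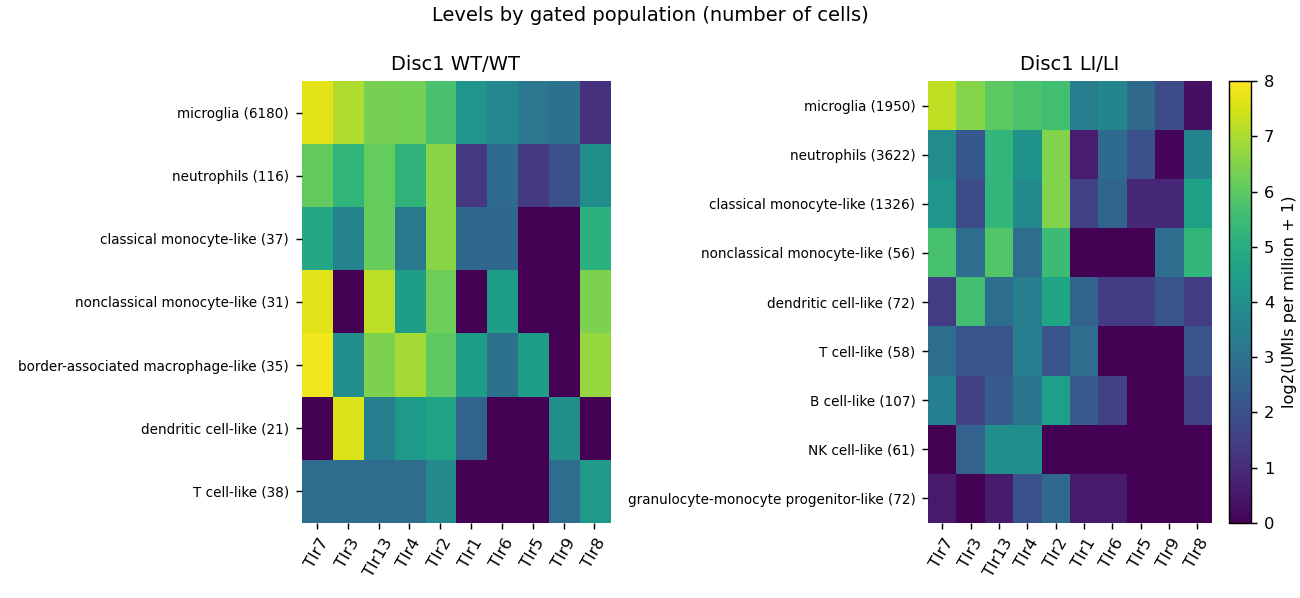
Level of each receptor gene, as log2(CPM + 1), in microglia, neutrophils and marker-gated populations with at least 20 cells, with cell numbers in parentheses. Disc1 WT/WT is on the left and Disc1 LI/LI on the right, and the darkest colour is 0 UMIs. Not shown are the unnamed cells of the microglia list, 32 neutrophil-like cells of Disc1 LI/LI and the cells of no list. Tlr8 is bright in border-associated macrophage-like (106 CPM) and nonclassical monocyte-like cells (84.3 CPM), and Tlr3 in microglia and dendritic cell-like cells (132 and 185 CPM).

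Across 8 populations of both libraries (16 points, some of which share cells, and which differ in depth), the genes with levels most like Tlr7 were Abcc5, Slc11a1 and Lamp2, with Pearson correlations of 0.97, 0.96 and 0.95 among 5465 genes. For Tlr2 they were Sdcbp, App and Cop1 (0.89, 0.89 and 0.86). Among Tlr2, Tlr3, Tlr4, Tlr7, Tlr8 and Tlr13, Tlr13 was most like both Tlr7 (0.82) and Tlr2 (0.82), whereas Tlr3 was like neither (-0.04 and 0.05).

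Within thinned microglia, most of the receptor pairs examined were found together about as often as their single shares would give, Tlr1 with Tlr2 in Disc1 WT/WT being the exception. Tlr3 and Tlr7 were in the same cell in 148 of 6076 Disc1 WT/WT cells, against 136 if independent, and in 20 of 1933 Disc1 LI/LI cells, against 21.5. Tlr2 was found with Tlr1 in 10 cells (4.13 if independent) and with Tlr6 in 4 cells (3.19) in Disc1 WT/WT, and with each in 1 cell in Disc1 LI/LI.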

How the data were processed

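Sorted CD45low CD11b+ brain cells of 1 pool of 6 Disc1 WT/WT and 1 pool of 6 Disc1 LI/LI mice were analysed. The authors deposited raw UMI counts per gene and barcode, made with Cell Ranger 6.1.2 (version per the file headers), with STAR, mm10 and Seurat 3.0.1 named in the submitters' processing notes. The matrices hold 14872 barcodes, more than the number of cells the methods state. Which droplet chip was used for each library is not given in the sources used here. Barcodes with 200 or more genes and no more than 10% of UMIs from mitochondrial genes were retained (14849). Counts were summed over the cells of a class and divided by their summed UMIs. Levels have exact Poisson intervals, shares exact binomial (Clopper-Pearson) intervals and ratios conditional Clopper-Pearson intervals, all at 95% and for counting error only. A gene at 0 is compared through a floor of 3 counts. With 1 library per genotype there is no test. Doublets were not removed.

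The members, pathway lists and markers were chosen with earlier results of these data known. Named pathway genes are, from each list, the 3 highest in Disc1 WT/WT microglia, the highest and lowest ratio among genes with at least 50 CPM and the highest in Disc1 LI/LI neutrophils, with Myd88, Ticam1, Cd14, Ly96 and Unc93b1. The genes most like Tlr7 and Tlr2 were ranked by correlation of log2(CPM + 1). A gated population needed at least 3 markers of 1 list and the highest share of its markers. The ratio and its interval were tried on counts simulated with Poisson error only. That is the error the interval assumes, so the trial says nothing of spread between mice or pools. Alternatives were TMM scaling (edgeR 4.0.16), other totals, cell weights, thinning, cell filters, gates and the 5% highest Scrublet scores (scanpy 1.11.5) left out. R 4.3.3 and Python 3.11.15 were used, the latter with pandas 2.3.3, matplotlib 3.10.9, scipy 1.17.1 and numpy 2.4.6.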

Additional observations from a re-analysis of the deposited data

How the results depend on the processing

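With 1 pool per genotype, no alternative stands for a replicate, and low counts limit Tlr8 and Tlr9 in microglia and Tlr1, Tlr5, Tlr6 and Tlr9 in the 116 Disc1 WT/WT neutrophils. In microglia the members' median log2 ratio stayed below 0 in all 11 alternatives and was -0.32 with TMM factors, which moved the median of all genes from -0.18 to -0.01. Its distance from the median of all genes was -0.31 in the main scaling and between -0.58 and -0.29 in the alternatives. The 4 members lower by 1.5-fold became 2 (of 9 with enough UMIs) with a microglia gate at 1%. They became 7 in microglia without a UMI of S100a8 or S100a9, of which Disc1 LI/LI had only 157. With TMM factors, the mean over cells or few border-associated macrophage markers they numbered 3. Of the pathway genes, the 8 lower became 5 with TMM factors, and the 4 higher became 1 with the gate at 1%, 2 with the mean over cells and 0 with thinned cells. The cause of these changes was not tested. The order of levels in microglia kept at least 8 of 10 members at their place in every alternative tried.

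The ratios of neutrophils over microglia in Disc1 LI/LI changed sign with TMM factors for Tlr5 (0.33), Tlr6 (0.31) and Tlr13 (0.61), and for Tlr13 (0.10) with the mean over cells. All 40 shares with a UMI moved when cells were thinned. The alternatives chosen after seeing the data, neutrophils with few or no microglia marker UMIs and microglia with fewer than 3 border-associated macrophage markers, changed no sign of a ratio whose interval excluded 0. No paired analysis was possible because each genotype has 1 library.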

Other observations

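Tlr11 and Tlr12, which recognise protozoan profilin and were not among the genes chosen, differed from each other. Tlr12 was at 17.4 CPM (511 UMIs) in Disc1 WT/WT and 19.3 CPM (158 UMIs) in Disc1 LI/LI microglia, a level near that of Tlr1 in Disc1 WT/WT, with a log2 ratio of 0.15 (-0.11 to 0.41). In neutrophils it was at 3.00 and 0.788 CPM. Tlr11 had 2 and 1 UMIs in microglia. Tlr9 was looked for in plasmacytoid dendritic cells, which are known for it. Among the other cells, 14 of Disc1 LI/LI and none of Disc1 WT/WT were gated as such by at least 3 of their markers. These cells had 5 UMIs of Tlr7 and 0 of Tlr9 among 110275 UMIs, too few to tell a low level from none. In the microglia class, 2 cells of Disc1 LI/LI also held at least 3 of these markers, 1 of which is the gate gene Siglech, and were not counted here.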
